A study of Mus musculus with 6 samples.

Results

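The 7 genes described here encode chains of mouse antibodies: the heavy chain constant regions *Ighm*, *Igha*, *Ighg1* and *Ighg2c*, the kappa light chain constant region *Igkc*, and the kappa variable segments *Igkv1-110* and *Igkv1-117*. They were picked by symbol from a deposited table of 3201 genes, which lists 13 immunoglobulin genes in all. RNA-seq was done on whole livers of male mice on a C57BL/6 background, 3 Fgf18 f/f livers (controls) and 3 Fgf18△HSC livers, all collected after 1 h of partial warm ischemia and 6 h of reperfusion (I/R). Both groups carry the floxed *Fgf18* allele, and in the Fgf18△HSC mice Cre driven by the GFAP promoter removes it in hepatic stellate cells (HSCs). The control label gives the treatment where a genotype should stand, so the genotype was taken from the study, and the age of the mice is not given in the sources used here. No sham-operated or non-ischemic liver was analysed, and *Fgf18* itself was not analysed here. GFAP promoters are also active in glia. The study calls its replicates biologically independent, but no source used here states that each liver of a group came from a separate mouse. The errors given therefore measure the spread between these samples.

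An antibody is built from paired heavy and light chains. B cells assemble each chain from a variable segment and a constant region, and the heavy constant region names the isotype: mu for IgM, alpha for IgA, gamma for IgG. Naive B cells make IgM, and after activation a B cell can switch to IgG or IgA by replacing the constant region, while plasma cells secrete the product in bulk. *Ighg2c* takes the place of *Ighg2a* in C57BL/6 mice. Hepatocytes are not known to make these chains, and B-lineage cells of the tissue or its blood are their known source in liver.

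All 4 heavy chain members lie on the minus strand of chromosome 12 of GRCm38 (GENCODE M21): *Igha* at 113254830 to 113260236, *Ighg2c* at 113285325 to 113288932, *Ighg1* at 113325240 to 113330523 and *Ighm* at 113418558 to 113422730. The kappa members lie on the plus strand of chromosome 6, with *Igkv1-117* at 68121046 to 68121827, *Igkv1-110* at 68270485 to 68271267 and the single exon of *Igkc* at 70726435 to 70726966. The gamma genes are related in sequence, and one place where they differ in length as well is the hinge, the flexible link between the antigen-binding arms and the tail. The hinge exons are shown for the 3 listed gamma genes, *Ighg1* (chr12:113329844-113329882), *Ighg2b* (chr12:113307261-113307326, listed but no member) and *Ighg2c* (chr12:113288263-113288325), read 5′ to 3′ on the minus strand from the GENCODE transcripts:
Ighg1: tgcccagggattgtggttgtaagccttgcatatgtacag
Ighg2b: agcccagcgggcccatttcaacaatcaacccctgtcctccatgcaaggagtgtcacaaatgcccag
Ighg2c: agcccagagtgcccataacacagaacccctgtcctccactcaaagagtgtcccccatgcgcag
The *Ighg1* hinge exon has 39 bases, against 66 in *Ighg2b* and 63 in *Ighg2c*. Along the whole shortest annotated transcript, *Ighg1* and *Ighg2c* are 74.3% identical and *Ighg2b* and *Ighg2c* 86.2%, while *Ighm* and *Igha* are 42.4% identical. Of the distinct 50-base windows of *Ighg2c* transcripts, 5.49% also occur in another gene (*Ighg2b*), against 0.393% for *Ighg1* and none for *Ighm*, *Igha* and *Igkc*.

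The kappa variable members are close copies, which bears on how their reads can be counted. Their V exons, shown for the first 300 bases of *Igkv1-110* (chr6:68270955-68271254, plus strand) and *Igkv1-117* (chr6:68121515-68121814, plus strand), have capitals at the bases that differ between the 2 genes:
Igkv1-110: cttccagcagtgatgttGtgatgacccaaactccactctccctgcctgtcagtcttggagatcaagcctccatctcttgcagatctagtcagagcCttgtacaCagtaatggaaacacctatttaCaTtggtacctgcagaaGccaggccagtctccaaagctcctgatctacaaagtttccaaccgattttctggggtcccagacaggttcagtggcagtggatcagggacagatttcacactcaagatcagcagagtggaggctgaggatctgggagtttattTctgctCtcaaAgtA
Igkv1-117: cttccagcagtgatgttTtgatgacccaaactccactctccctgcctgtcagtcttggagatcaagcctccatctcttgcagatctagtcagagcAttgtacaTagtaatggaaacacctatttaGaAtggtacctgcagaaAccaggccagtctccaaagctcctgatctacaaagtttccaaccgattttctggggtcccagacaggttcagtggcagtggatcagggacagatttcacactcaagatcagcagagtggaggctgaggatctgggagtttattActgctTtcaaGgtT
The exons differ at 10 of the 313 bases compared (96.8% identity, no gap), all 10 of them in the bases shown. About 50.9% of the 50-base windows of *Igkv1-110* and 49.9% of those of *Igkv1-117* occur in another annotated gene, namely each other and *Igkv1-122*. A read that lies wholly within a shared stretch cannot be assigned to 1 gene. The window of 50 bases was a choice and was not taken from the read length. The values of both V genes are therefore uncertain, to an extent that depends on the read length.

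The values are TPM, a unit in which reads are divided by gene length and each library is scaled to one total. The file does not name the unit. It was inferred from the steps between low values: multiplied by joined exon length, 92.2 to 92.6% of the values under 5000 reads in each liver came within 0.02 of an integer read count. All 13 immunoglobulin genes gave whole reads in every liver. By the size of 1 read, depth in the 6 libraries ranged from 57.1 to 100% of that of the deepest (Fgf18 f/f liver 1). The authors had put only genes past their own limits (log2 fold change beyond 1 in either direction, unadjusted p below 0.05) into the table, and the 7 members were chosen with their values in view, so the differences between genotypes given for them are a description and carry no test. In whole tissue, fewer cells of a type and less RNA per cell cannot be told apart.

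All 7 genes had a higher mean in Fgf18△HSC livers. Among members with control reads, the ratio of pooled reads was largest for the 2 IgG genes (*Ighg1* 303, *Ighg2c* 83.7). The exact 95% interval of *Igkv1-117* (5.13 to 1281) spans both ratios, and *Igkv1-110*, with no control read, has no ratio. The ranking depends on the scale. With a pseudocount of 1, *Igkc* had the largest log2 fold change, 2.28, against 1.87 for *Ighg2c* and 1.43 for *Ighg1*. Summed over the 7 genes, Fgf18 f/f livers had 6.64, 6.39 and 9.91 TPM, resting on 240, 183 and 221 reads. The corresponding sums of Fgf18△HSC livers were 32.8, 31.3 and 56.8 TPM, from 743, 561 and 1181 reads. For 6 of the 7 genes every Fgf18△HSC liver lay above every Fgf18 f/f liver, the exception being *Igkv1-110*, beside 62.0% of all listed genes.

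**Figure D1:**
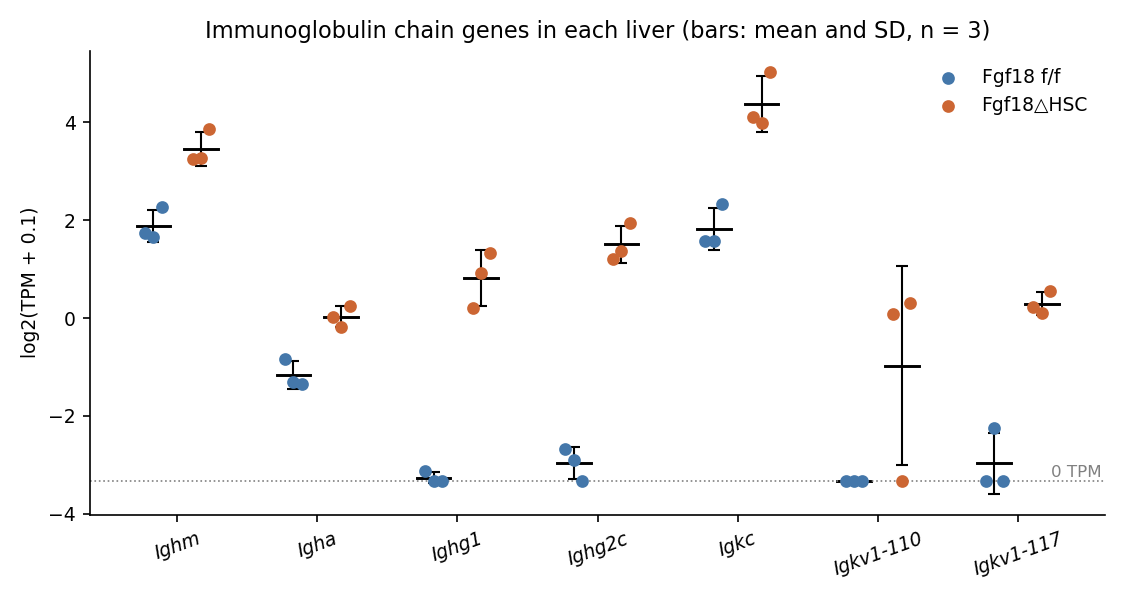
Level of each of the 7 genes in each liver as log2(TPM + 0.1), with points for livers and black bars for the mean and SD of the 3 livers of a genotype. The *Ighg1* and *Ighg2c* points of the Fgf18 f/f livers sit at or just above the dotted line that marks 0 TPM. Those of *Igkv1-110* (all at 0 TPM) and *Igkv1-117* (0, 0.111 and 0 TPM) lie at or near it as well, while those of *Ighm* and *Igkc* do not come near it.

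*Ighm*, the mu constant region carried by IgM, was the most abundant heavy chain gene in all 6 livers. It stood at 3.23, 3.07 and 4.71 TPM in control livers and at 9.41, 9.51 and 14.4 TPM in Fgf18△HSC livers, on 129 to 539 reads. The groups did not overlap, and the third liver of each genotype was the highest of its group. The means were 3.67 ± 0.905 and 11.1 ± 2.88 TPM (SD, n = 3 per genotype), a ratio of 3.03, and the log2 fold change was 1.57 (standard error 0.22).

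*Igha*, the alpha constant region of IgA, the isotype of mucosal secretions and bile, showed the smallest ratio. Its level was 0.462, 0.303 and 0.291 TPM in control livers and 0.922, 0.785 and 1.08 TPM in Fgf18△HSC livers, on 14 to 57 reads. Here liver 1 was the highest of the Fgf18 f/f group and liver 3 the highest of the Fgf18△HSC group, with no overlap. The means of 0.352 ± 0.0954 and 0.929 ± 0.148 TPM (SD, n = 3 per genotype) stood in a ratio of 2.64, with a log2 fold change of 1.20 (standard error 0.23).

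*Ighg1*, the gamma 1 constant region, was at or near 0 in every Fgf18 f/f liver. A single read was found there, in liver 1 (0.0144 TPM), and livers 2 and 3 were at 0, whereas Fgf18△HSC livers had 1.06, 1.79 and 2.42 TPM on 57, 71 and 124 reads. From the pooled reads, 1 against 252, the ratio was 303 with an exact 95% interval from 53.9 to 12008 that covers counting error only. The fitted log2 fold change of 4.08 (standard error 0.30) depends on the pseudocount, at 1.43 with a pseudocount of 1 and 6.96 with 0.01.

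*Ighg2c*, the gamma 2c constant region, followed the same layout with 2, 1 and 0 reads in control livers (0.0563, 0.0338 and 0 TPM) and 61, 50 and 98 reads in Fgf18△HSC livers (2.22, 2.47 and 3.74 TPM). Every Fgf18△HSC liver was far above every control. The ratio of the pooled reads, 3 against 209, was 83.7 (exact 95% interval 28.3 to 409, counting error only). *Ighg2b*, the gamma 2b gene that is listed but is no member, had 2, 5 and 3 reads in control livers and 74, 59 and 136 reads in Fgf18△HSC livers, a ratio of 32.3 (exact 95% interval 17.3 to 68.2). The pooled reads of *Ighm* gave an interval of 2.81 to 3.51. All of these intervals leave out the spread between livers, so they do not test 1 gene against another.

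*Igkc*, the constant region shared by all kappa light chains, was the most abundant member in every Fgf18△HSC liver. It had 2.88, 2.87 and 4.90 TPM (41, 34 and 47 reads) in control livers and 17.1, 15.7 and 32.6 TPM (189, 128 and 343 reads) in Fgf18△HSC livers. Liver 3 was again the highest of each genotype. Means of 3.55 ± 1.17 and 21.8 ± 9.35 TPM (SD, n = 3 per genotype) gave a ratio of 6.15 and a log2 fold change of 2.55 (standard error 0.31).

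The variable segments rest on few reads. *Igkv1-117* had 0, 1 and 0 reads in control livers (0, 0.111 and 0 TPM) and 9, 6 and 11 reads in Fgf18△HSC livers (1.07, 0.972 and 1.38 TPM), a ratio of pooled reads of 31.2 (exact 95% interval 5.13 to 1281). *Igkv1-110* had no read in any Fgf18 f/f liver and 8, 0 and 9 reads in Fgf18△HSC livers (0.962, 0 and 1.13 TPM). Its mean in Fgf18△HSC livers was at least 2.03-fold higher, counted against a floor of 3 reads per Fgf18 f/f liver. Fgf18△HSC liver 2, the shallowest library, therefore overlapped the controls at *Igkv1-110* but not at its near copy *Igkv1-117*.

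To place these values among all genes, log2(TPM + 0.1) was compared between genotypes with limma over the 3201 genes, with calls made where the p adjusted by Benjamini-Hochberg was below 0.05 and the log2 fold change exceeded 1 in size. All 7 members were called higher, in a table where 71.7% of the genes were called, 41.6% higher and 30.0% lower. The median log2 fold change was 2.55 over the 7 members and 0.88 over all listed genes. These counts follow from how the table and the members were chosen, and nothing is read from them. The count of 7 fell to 6 without Fgf18 f/f liver 1, 2 or 3 or without Fgf18△HSC liver 1 or 3, and *Igkv1-110* was then the gene not called.

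The calls of *Ighm* and *Igha* depended on the scaling used. The listed genes made up 7.14 to 7.93% of all TPM in Fgf18 f/f livers but 3.89 to 3.99% in Fgf18△HSC livers. When livers were rescaled so that the listed genes had a median ratio of 1 to their average, the log2 fold changes shifted by a median of -0.83. *Ighm* then stood at 0.61 and *Igha* at 0.37, both still higher but not called, while the other 5 members remained called. Over all listed genes, 58.1% of the calls were higher with the values as deposited, 21.3% in rescaled livers, 32.0% with a pseudocount of 1 and 39.9% among genes whose mean reached 1 TPM.

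Isotypes were then compared as shares within each liver, which no rescaling of a liver can change. Of the summed TPM of the 4 heavy chain members, *Ighm* held 85.8, 90.1 and 94.2% in control livers and 69.1, 65.3 and 66.6% in Fgf18△HSC livers. IgM was thus the main isotype in both genotypes, with a share that did not overlap between them. *Ighg1* and *Ighg2c* together held 1.88, 0.994 and 0% in control livers and 24.1, 29.3 and 28.4% in Fgf18△HSC livers, or 0.958 ± 0.941% and 27.3 ± 2.77% (SD, n = 3 per genotype). *Igha* held 12.3, 8.89 and 5.83% against 6.77, 5.39 and 4.98%, so that its shares overlapped between genotypes. The ratio of *Ighm* to *Igha*, 11.1 ± 4.66 in Fgf18 f/f and 11.9 ± 1.6 in Fgf18△HSC livers (SD, n = 3 per genotype), overlapped as well.

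Counted as reads, *Ighg1* and *Ighg2c* made up 118 of 537, 121 of 427 and 222 of 818 heavy chain reads in Fgf18△HSC livers, or 22.0, 28.3 and 27.1%. The exact (Clopper-Pearson) 95% intervals of these shares were 18.5 to 25.7%, 24.1 to 32.9% and 24.1 to 30.3%, each overlapping the others. In Fgf18 f/f livers the counts were 3 of 199, 1 of 148 and 0 of 174, with upper bounds of 4.34, 3.71 and 2.1%, and the 0 allows a share of up to 1.72% by the floor of 3 reads. Intervals and floors cover counting error only, since PCR copies of a molecule are not independent. With *Ighg2b* added to the sum, the IgG share was 2.40 ± 1.09% in Fgf18 f/f and 34.2 ± 2.86% in Fgf18△HSC livers (SD, n = 3 per genotype).

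**Figure D2:**
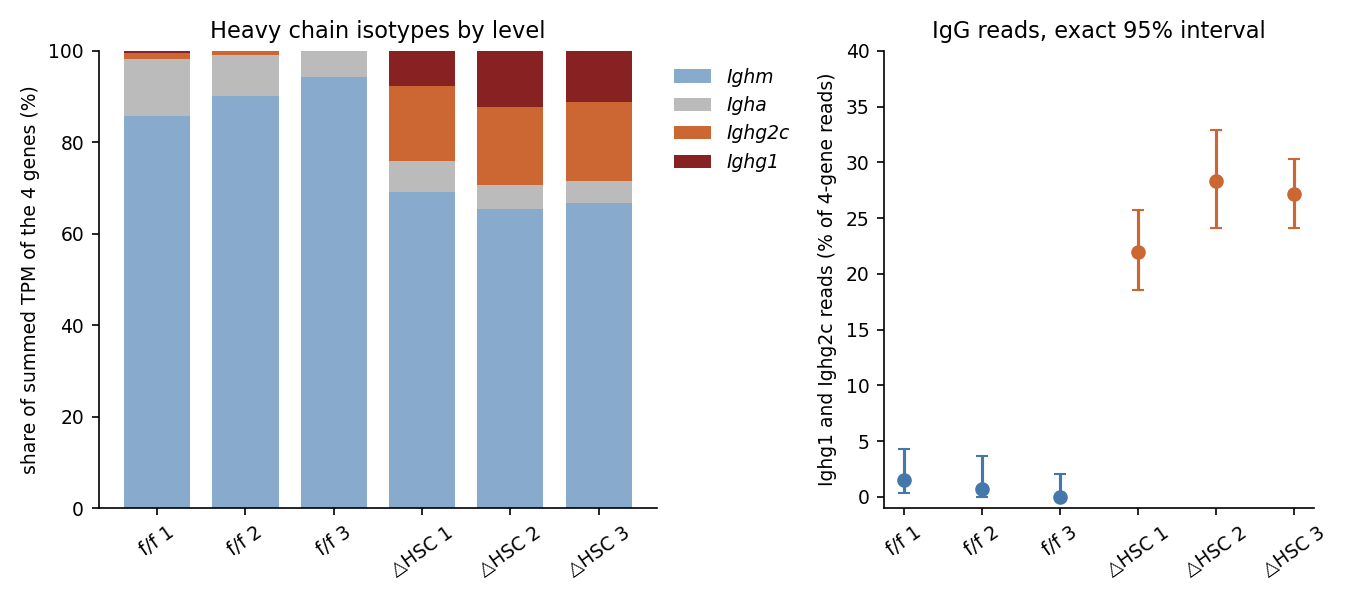
Left, share of the summed TPM of *Ighm*, *Igha*, *Ighg2c* and *Ighg1* held by each gene in each liver (bars add up to 100%). Right, reads of *Ighg1* and *Ighg2c* as a percentage of the reads of these 4 genes, with exact 95% intervals; the highest upper bound among Fgf18 f/f livers is 4.34% and the lowest bound among Fgf18△HSC livers is 18.5%.

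Among the members, the order of the constant regions by TPM was the same in the 3 Fgf18△HSC livers: *Igkc*, *Ighm*, *Ighg2c*, *Ighg1*, *Igha*. The listed constant regions that are no members had no fixed place in it. *Ighg2b* (1.33, 1.44 and 2.57 TPM) was above *Ighg1* in livers 1 and 3 only. *Iglc1* (0.743, 1.73 and 1.34 TPM) was above *Igha* in livers 2 and 3 only. In Fgf18 f/f livers *Ighm* and *Igkc* changed places in TPM, with *Ighm* ahead in livers 1 and 2 and *Igkc* ahead in liver 3, and *Igha* came next. With TPM rescaled to the shortest annotated transcript, *Ighm* was ahead in each of these livers (4.08, 3.88 and 5.95 against 2.88, 2.87 and 4.90). The order of *Ighg1* and *Ighg2c* also depends on the length used. The joined exons of *Ighg1* span 2592 bases and those of *Ighg2c* 1326, while their shortest annotated transcripts, of 4 exons each, have 1076 and 1111 bases. The ratio of *Ighg1* to *Ighg2c* in Fgf18△HSC livers was 0.478, 0.726 and 0.647 in TPM, but 0.965, 1.47 and 1.31 per base of the shortest transcript, a length added after the data were seen. The order of the 2 gamma genes is therefore not settled. On that length the IgG share of the 4 members was 31.4 ± 3.94% in Fgf18△HSC livers and 0.931 ± 0.963% in Fgf18 f/f livers (SD, n = 3 per genotype).

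Light chain RNA was compared with heavy chain RNA as the ratio of *Igkc* to the summed TPM of the 4 heavy chain members. The ratio was 0.765, 0.842 and 0.981 in control livers and 1.26, 1.08 and 1.5 in Fgf18△HSC livers, without overlap for these 4 genes in TPM. With *Ighg2b* added to the sum the mean ratios were 0.850 and 1.16, and per base of the shortest transcripts 0.632 and 0.892. The gap between the means thus narrowed with other heavy chain genes or lengths, and the lack of overlap is not claimed for them. The lambda constant region *Iglc1* stood at 2.86, 3.45 and 7.48% of the *Igkc* level in control livers and 4.34, 11.0 and 4.10% in Fgf18△HSC livers, which overlap, on 1 to 12 reads per liver.

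A kappa chain carries one V segment, and 5 of the 100 annotated kappa V genes are listed. Together these 5 had 7.01, 3.87 and 2.96 TPM per 100 TPM of *Igkc* in control livers and 21, 16.3 and 20.5 in Fgf18△HSC livers. Only V genes past the authors' limits on the difference between genotypes are listed, so these ratios follow the selection. They say nothing about the use of V segments as a whole. *Igkv10-96* had 1, 0 and 0 reads in control and 5, 4 and 8 reads in Fgf18△HSC livers, and *Igkv4-61* had 1, 0 and 1 against 4, 3 and 8. *Igkv4-55* had no read in control livers and 3, 2 and 15 in Fgf18△HSC livers, at least 2.5-fold higher against the floor of 3 reads, and liver 3 alone held 73.3% of its total. The lambda segment *Iglv1* had 1, 2 and 0 reads against 2, 8 and 9. None of the 113 annotated heavy chain V genes is in the table, and *Ighd*, *Ighe*, *Ighg3*, *Iglc2*, *Iglc3* and *Iglc4* were not analysed here. With the 7 members, all 13 listed immunoglobulin genes were called higher, beside 41.6% of all listed genes, and 12 when *Igkv1-110* dropped out as above.

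The share of each gene's 6-liver total held by each liver showed how evenly the 3 Fgf18△HSC livers contributed. Fgf18△HSC livers together held 75.2% of *Ighm*, 72.5% of *Igha*, 99.7% of *Ighg1*, 98.9% of *Ighg2c*, 86.0% of *Igkc* and 96.9% of *Igkv1-117*. Fgf18△HSC liver 3 held the largest part of each of the 7 genes, from 28.1% of *Igha* to 54.1% of *Igkv1-110*, beside 48.9% of the 2083 listed genes with a higher mean in Fgf18△HSC livers for which it was the highest liver. It held 42.8% of *Igkc*, against 22.5 and 20.7% in Fgf18△HSC livers 1 and 2. Its *Igkc* level was 1.98 times the mean of the other 2, and 12.2% of those 2083 genes had a ratio as large. Over the 7 members this ratio had a median of 1.59, and over the 2083 genes 1.13. Without liver 3 the IgG share of the remaining Fgf18△HSC livers (24.1 and 29.3%) still lay above every control.

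**Figure D3:**
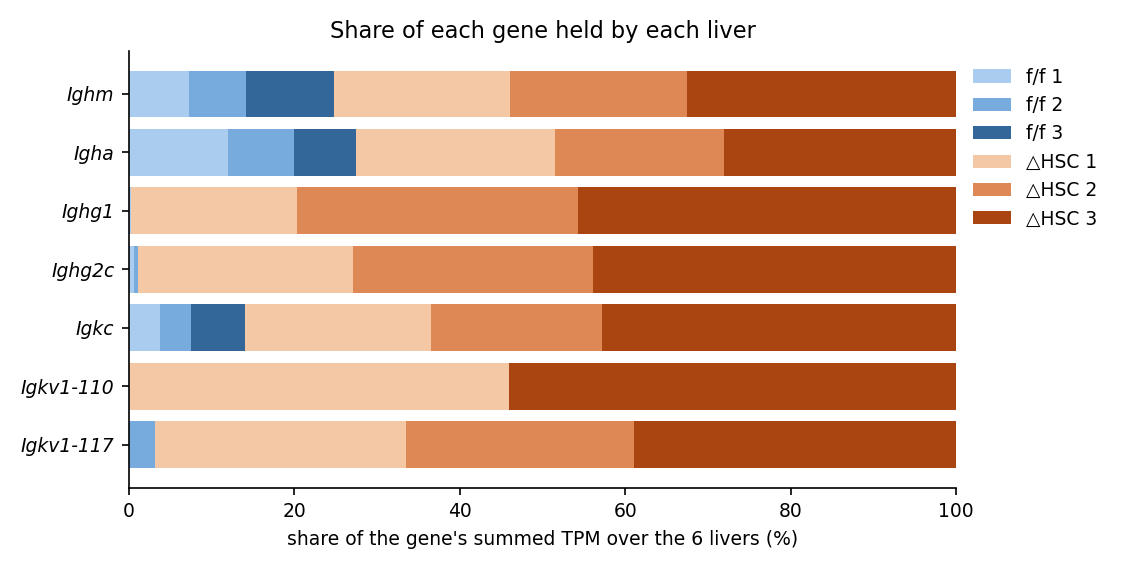
Share of each gene's TPM, summed over the 6 livers, held by each liver (blue, Fgf18 f/f livers 1 to 3; orange, Fgf18△HSC livers 1 to 3). The blue part is 27.5% of *Igha* and 24.8% of *Ighm* but 1.06% of *Ighg2c* and 0.273% of *Ighg1*, and the darkest orange, liver 3, is the widest part in every row.

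Few genes that mark B-lineage cells are in the table. Of 40 B cell and plasma cell markers, 3 are listed, and the other 37, among them *Ms4a1*, *Cd79a*, *Mzb1* and *Sdc1*, were not analysed here. *Jchain*, which links IgM and IgA into polymers and is made by plasma cells, had 0.0890, 0.125 and 0.0882 TPM in control livers and 0.555, 0.676 and 1.20 TPM in Fgf18△HSC livers, and rose (log2 fold change 2.12, standard error 0.29). *Ly6d*, a surface protein found on early B-lineage cells and on epithelia, rose, with control livers at 1.13 ± 0.330 TPM and Fgf18△HSC livers at 12.2 ± 6.14 TPM (SD, n = 3 per genotype), with its highest value in Fgf18△HSC liver 2 and not in liver 3. *Cxcr5*, the receptor that takes B cells to follicles, had 0.0328 ± 0.0213 and 0.141 ± 0.0376 TPM (SD, n = 3 per genotype) and was not called. The summed level of the 3 was 1.08 to 1.61 TPM in Fgf18 f/f and 6.74 to 19.1 TPM in Fgf18△HSC livers, most of it *Ly6d*. It is therefore no measure of B-lineage cells.

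Among 13 receptors and transporters of immunoglobulins, 2 are listed, and both were called higher, beside 41.6% of all listed genes. *Fcgr3*, a low-affinity IgG receptor of myeloid cells, went from 3.61 ± 0.511 to 8.91 ± 2.52 TPM, and *Fcgr4*, which binds IgG2 subclasses, from 1.86 ± 0.268 to 4.15 ± 0.880 TPM (SD, n = 3 per genotype). Neither was called in rescaled livers, and *Fcgr4* was not called without Fgf18△HSC liver 2, with a count of 1 in place of 2. The polymeric receptor *Pigr* and the neonatal receptor *Fcgrt* were not analysed here.

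Of 23 genes for receptor gene assembly, class switching, B cell homing and survival, 6 are listed, with 3 called higher and 2 lower. Over all listed genes 41.6% were called higher and 30.0% lower, so nothing is read from these counts. *Cxcl13*, the ligand of CXCR5, had 0.195, 0.273 and 0.772 TPM in Fgf18 f/f and 3.19, 6.72 and 3.08 TPM in Fgf18△HSC livers. *Cxcr4*, which holds plasma cells in bone marrow and is found on many leukocytes, rose with a log2 fold change of 2.44 (standard error 0.21), and *Tnfsf13*, which encodes the plasma cell survival factor APRIL, with one of 1.17 (standard error 0.20) on 34 reads in all Fgf18△HSC livers. *Il6* and *Il10*, cytokines that act on B cells among many others, fell by 2.20 and 4.03 on the log2 scale.

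**Figure D4:**
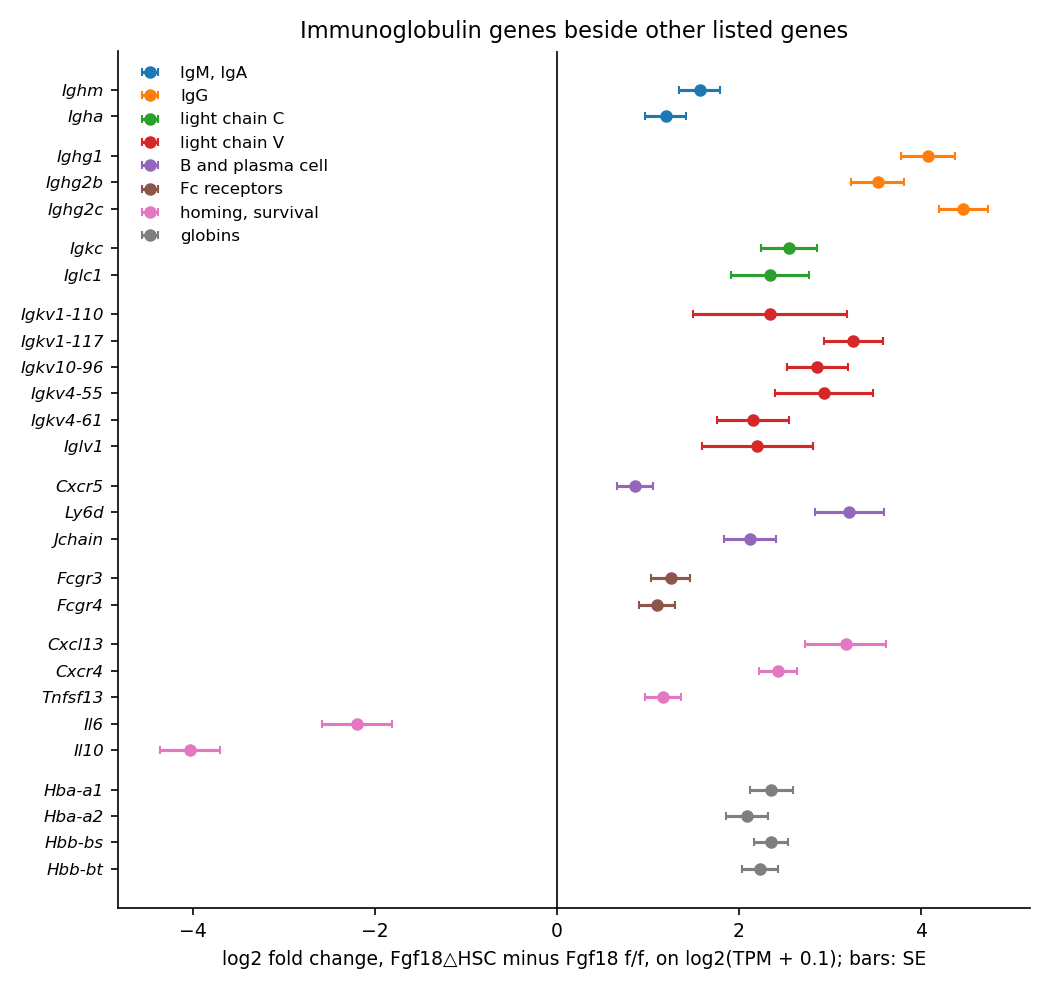
Log2 fold change (Fgf18△HSC minus Fgf18 f/f, on log2(TPM + 0.1)) of the 13 listed immunoglobulin genes and of listed genes of other groups, with the standard error as bars. The 3 IgG genes lie between 3.53 and 4.47, *Ighm* and *Igha* at 1.57 and 1.20 and the 4 globin genes between 2.09 and 2.36, and values of genes with no or few control reads depend on the pseudocount.

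Listed markers of other cells moved in both directions. The 4 listed globin genes (of 8 erythroid markers) summed to 70.9 to 116 TPM in Fgf18 f/f and 396 to 539 TPM in Fgf18△HSC livers, with *Hbb-bs* at 59.7 ± 14.5 and 302 ± 37.4 TPM and *Hba-a1* at 14.7 ± 4.62 and 74.7 ± 15.0 TPM (SD, n = 3 per genotype). The 7 members had 9.37, 7.01 and 8.53 TPM per 100 TPM of globin in control livers and 7.41, 7.90 and 10.5 in Fgf18△HSC livers, which overlap. This sum joins genes with unlike ratios between the genotype means, at 3.03 for *Ighm*, 2.64 for *Igha* and 6.15 for *Igkc*. The globin genes stood at 4.40 to 5.07, and *Ighg1* and *Ighg2c* far higher. Of 10 Kupffer cell and monocyte markers 3 are listed, summing to 4.41 to 5.65 TPM and 15.0 to 21.5 TPM, led by *Cd68* (4.54 ± 0.659 and 16.1 ± 2.5 TPM) and *Ccr2* (0.246 ± 0.0650 and 1.26 ± 0.636 TPM; SD, n = 3 livers each). Of 12 neutrophil markers 6 are listed, summing to 417 to 511 TPM and 128 to 161 TPM. Most of this sum was *Lcn2* alone, at 458 ± 50.1 and 128 ± 21.4 TPM (SD, n = 3 per genotype). Here 4 fell, *Lcn2* and *Ngp* among them (log2 fold changes -1.84 and -3.68), and 2 rose, *Mmp8* and *Cxcr2* (2.05 and 1.27). None of 15 T and NK cell markers is listed. Of 8 hepatocyte markers 1 is listed, *Cyp2e1*, at 1786 ± 152 and 569 ± 113 TPM (SD, n = 3 per genotype). The part of these cells and of blood in the immunoglobulin values was not tested.

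Against 1661 listed genes outside the immunoglobulins whose mean reached 1 TPM in one genotype or both, those most like *Igkc* over the 6 livers in log2(TPM + 0.1) were *Cxcl5* (Pearson r = 0.999), *Anxa2* (0.997), *Rhoj*, *Bcam*, *Ppp1r9b*, *Hba-a2*, *Fchsd1*, *Adgre5*, *Hexim1* and *Axl* (0.996 to 0.994). In this table such values are common, with 509 of the 1661 genes above 0.9, and all of its genes were selected for a difference between the genotypes. Of the other members, *Ighm* had r = 0.998 with *Igkc*, *Ighg1* 0.964, *Ighg2c* 0.952, *Igkv1-117* 0.925, *Igha* 0.914 and *Igkv1-110* 0.782.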

How the data were processed

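RNA of 6 whole-liver samples was sequenced as stranded mRNA libraries. According to the methods and the submitters' processing notes, the authors trimmed reads with cutadapt 2.5, aligned them to GRCm38 (mm10) with HISAT2 2.1.0, counted them per gene with featureCounts 1.6.3 and compared genotypes with DESeq2. The authors deposited 1 table of TPM values for each liver, holding selected genes only. Its columns of fold changes, p-values and direction come from the authors' comparison and were read only to establish how the table had been filtered, which all 3201 genes met. The treatment of reads that map to several genes is not given in the sources used here.

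Joined exon lengths came from GENCODE M21, which matched 3196 genes, and 2933 genes gave whole reads in all livers. Recovered reads served for depth, shares with exact 95% intervals (scipy 1.17.1) and floors of 3 reads. Genotypes were compared with limma 3.58.1 in R 4.3.3 (mean-variance trend, no block, no filter on low values) on log2(TPM + 0.1). The fit was also run on simulated counts in which few genes changed, unlike in this table, so nothing about these data is read from that run. Both groups use the numbers 1 to 3, and no source used here says that a number pairs samples across genotypes. The members and gene lists were chosen with earlier results of these data known. Named were the members, all listed immunoglobulin genes and all listed genes of the B-lineage, receptor and homing lists. Also named were the 2 most abundant of each other list, further neutrophil markers and the 10 genes most like *Igkc*. Alternatives were other pseudocounts, a filter, rescaled livers, a replicate block, no trend, no fold limit, each liver left out, reads and other lengths for shares and limma-voom applied to the recovered reads, the last of which, like the shortest transcript and the sum with *Ighg2b*, was chosen after seeing the data. A planned search of promoters for the immunoglobulin octamer was not run, as no promoter sequence of a member was used here. No outlier test was made, since groups hold 3 livers.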

Additional observations from a re-analysis of the deposited data

How the results depend on the processing

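Directions of the 7 members were the same under every alternative run, and of 94 recomputed fold changes 85 kept their side of the threshold and 9 lost it, all of *Ighm*, *Igha* and *Igkv1-110*. The calls over all listed genes numbered 2294 (1333 higher, 961 lower), 832 with a pseudocount of 1 (266 and 566), 1309 of the 1424 genes whose mean reached 1 TPM (522 higher), 1416 in rescaled livers (302 higher) and 2005 higher with no limit on the fold change. Each liver left out in turn gave from 2120 to 2330 calls. The replicate block gave 2300 calls and changed no call of a member, and same-numbered livers did not deviate together (r of 0.057, 0.0060 and 0.031 over genes). Under that filter only 3 members remained to be tested, all called, and 3 of all listed immunoglobulin genes. A pseudocount of 1 left 6 of the 13 listed immunoglobulin genes, 1 B-lineage gene and 1 receptor gene, rescaled livers left 0 receptor genes, omission of single livers left 1 to 2, and the mean filter left 1 B-lineage gene.

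Shares depended on length. With the shortest transcript *Ighm* held 83.2 and 58.9% (Fgf18 f/f and Fgf18△HSC), *Igha* 15.8 and 9.66%, and in Fgf18△HSC livers *Ighg1* 17.4% and *Ighg2c* 14.0%. With reads not divided by length *Igha* held 12.3 and 7.99%, *Ighg1* 14.1% and *Ighg2c* 11.7%. Adding *Ighg2b* gave 60.7% *Ighm* and 15.2% *Ighg2c* in Fgf18△HSC livers. The ratio of *Igkc* to heavy chains was 0.235 and 0.357 in reads, and 0.632 and 0.892 with the shortest transcript. Rescaling put the part held by Fgf18△HSC livers at 60.5% of *Ighm*, 56.8% of *Igha* and 75.6% of *Igkc*, and reads put it at 72.3% of *Ighm*. Leaving out a liver kept the Fgf18△HSC share of *Ighg2c* within 16.6 to 17.1%.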
